A study of Homo sapiens with 19 samples.

Results

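Caveolins 1 and 2 and cavin 1, the proteins that build the flask-shaped membrane pits called caveolae, were followed through 1 messenger RNA transcript each in MDA-MB-231 cells, a long-established triple-negative breast cancer line. The 3 transcripts were chosen by their Ensembl IDs, with the estimated reads of all 6 groups known beforehand: CAV1 ENST00000341049, CAV2 ENST00000222693 and CAVIN1 ENST00000357037 (also called PTRF). They are 3 of the 175775 transcripts listed for every library, and all 3 passed the filter on low counts in both experiments. No fold change or p-value entered the rule, but the members were put forward with the counts in view, so the tests below measure a difference against the spread between libraries and are not independent support for it. Each gene has other transcripts that could not be linked to it here, because the files give IDs without gene names, so the values belong to these 3 transcripts and not to the whole genes. The other genes of the caveola (the remaining cavins, EHD and PACSIN proteins) and the level of STAT3 and HMGN5 themselves were not analysed here for the same reason.

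The cells had been transfected with siRNA at 30 nM and poly(A) RNA was sequenced. In the siRNA experiment cells received control siRNA (NC, 4 libraries), HMGN5 siRNA (siHMGN5, 2 libraries) or STAT3 siRNA (siSTAT3, 2 libraries). In the lentiviral experiment they received control siRNA and control vector (NC_Vec, 3 libraries), STAT3 siRNA and control vector (siSTAT3_Vec, 3 libraries) or STAT3 siRNA and lentiviral HMGN5 (siSTAT3_HMGN5, 3 libraries). All groups are the same cell line, all were transfected, and the labels give neither a batch nor the time of harvest. STAT3 is a transcription factor activated by cytokine receptors, and HMGN5 is a protein that binds nucleosomes.

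Caveolins are small proteins inserted in the inner leaflet of the membrane like a hairpin. CAV1 forms the oligomers that shape the pit, CAV2 joins them and depends on CAV1 to leave the Golgi, and CAVIN1 is a soluble coat protein without which caveolins do not assemble into pits. Among breast cancer lines, the basal-like ones, MDA-MB-231 included, are known for high CAV1.

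CAV1 and CAV2 are neighbours on chromosome 7 (GRCh38.p14): CAV2 spans chr7:116499738-116508541 and CAV1 chr7:116525009-116561185, with 16.5 kb between them. CAVIN1 lies on chromosome 17, at chr17:42402449-42423256. The 250 bases before the first RefSeq start of each caveolin gene are shown because these 2 genes share a locus and both transcripts were lower after STAT3 siRNA. They are on the plus strand, 5′ to 3′, with every CG pair in capitals, at chr7:116524759-116525008 for CAV1 and chr7:116499488-116499737 for CAV2.
CAV1: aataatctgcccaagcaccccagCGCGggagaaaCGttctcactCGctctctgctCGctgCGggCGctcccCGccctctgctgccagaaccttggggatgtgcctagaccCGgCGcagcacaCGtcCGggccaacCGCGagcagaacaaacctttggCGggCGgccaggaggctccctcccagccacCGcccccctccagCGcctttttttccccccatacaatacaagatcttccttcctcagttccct
CAV2: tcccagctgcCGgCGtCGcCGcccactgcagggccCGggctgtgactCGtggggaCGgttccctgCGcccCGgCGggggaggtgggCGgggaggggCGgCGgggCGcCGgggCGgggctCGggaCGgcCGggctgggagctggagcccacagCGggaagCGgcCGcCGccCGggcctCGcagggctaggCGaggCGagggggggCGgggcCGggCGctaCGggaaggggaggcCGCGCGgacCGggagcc

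The 2 upstream stretches differed in composition. That of CAV2 held 35 CG pairs and was 83.2% G and C, and that of CAV1 held 18 CG pairs and was 63.6% G and C, against a median of 11 CG pairs over 35114 RefSeq promoter windows cut in the same way. The consensus site of STAT factors, TTCNNNGAA, which reads the same on both strands, was searched in windows from 250 bases before to 50 after each start. It occurred in 0 of 3 CAV1 windows (which overlap in part) and 0 of 2 CAV2 windows, and in 7.66% of all windows. The GC box GGGCGG, searched on both strands, was in all of these CAV1 and CAV2 windows and in 45% of all windows. The TATA box core TATAAA, also on both strands, was in 0 of 3 CAV1 and 0 of 2 CAV2 windows and in 11.5% of all windows. The GC box, the TATA box and the CG pairs were chosen after the values were seen. These are matches of letters in short windows and say nothing of binding elsewhere.

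Libraries held 19114033 to 19509422 estimated reads in the siRNA experiment and 22500086 to 23047081 in the lentiviral one, and CPM below are reads scaled by library total and TMM within each experiment. The NC libraries fell into 2 pairs: the chi-square per transcript, averaged, was 32.7 to 34 when a library of replicates 1 and 2 was set against 1 of replicates 3 and 4, and 14.7 to 18.6 for all other replicate pairs of a group, so each NC result is also given against each pair. In those fits the spread between the pairs did not count as error, and more transcripts passed. In siHMGN5 against NC the number passing went from 2521 to 4163 (replicates 1 and 2) and 7656 (replicates 3 and 4). The labels do not say whether replicates were separate cultures, so p-values measure the spread between these libraries, which may be technical. In bulk RNA, fewer cells with a transcript and less of it per cell cannot be told apart. In none of the 17 libraries was the estimated read number of any of the 3 transcripts within 0.0015 of a whole number, so part of their reads was divided between transcripts by the quantification, and whether reads moved between isoforms was not tested.

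On the per-length scale (TPM), CAVIN1 was the highest of the 3 in every library, at 57.3 to 97.3 TPM in the siRNA experiment and 59.3 to 83.0 TPM in the lentiviral one. CAV1 ranged from 1.88 to 32.8 TPM and from 4.75 to 16.1 TPM in the same order, and CAV2 from 3.05 to 20.1 TPM and from 8.67 to 17.8 TPM. All were abundant among the transcripts tested: by mean CPM, CAVIN1 ranked 92 of 74346 and 135 of 69768, CAV2 2845 and 2372, and CAV1 1848 and 3979. Their spans were unlike. The highest library exceeded the lowest 15.3-fold for CAV1 and 6.27-fold for CAV2 in the siRNA experiment, and 1.48-fold for CAVIN1.

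**Figure D1:**
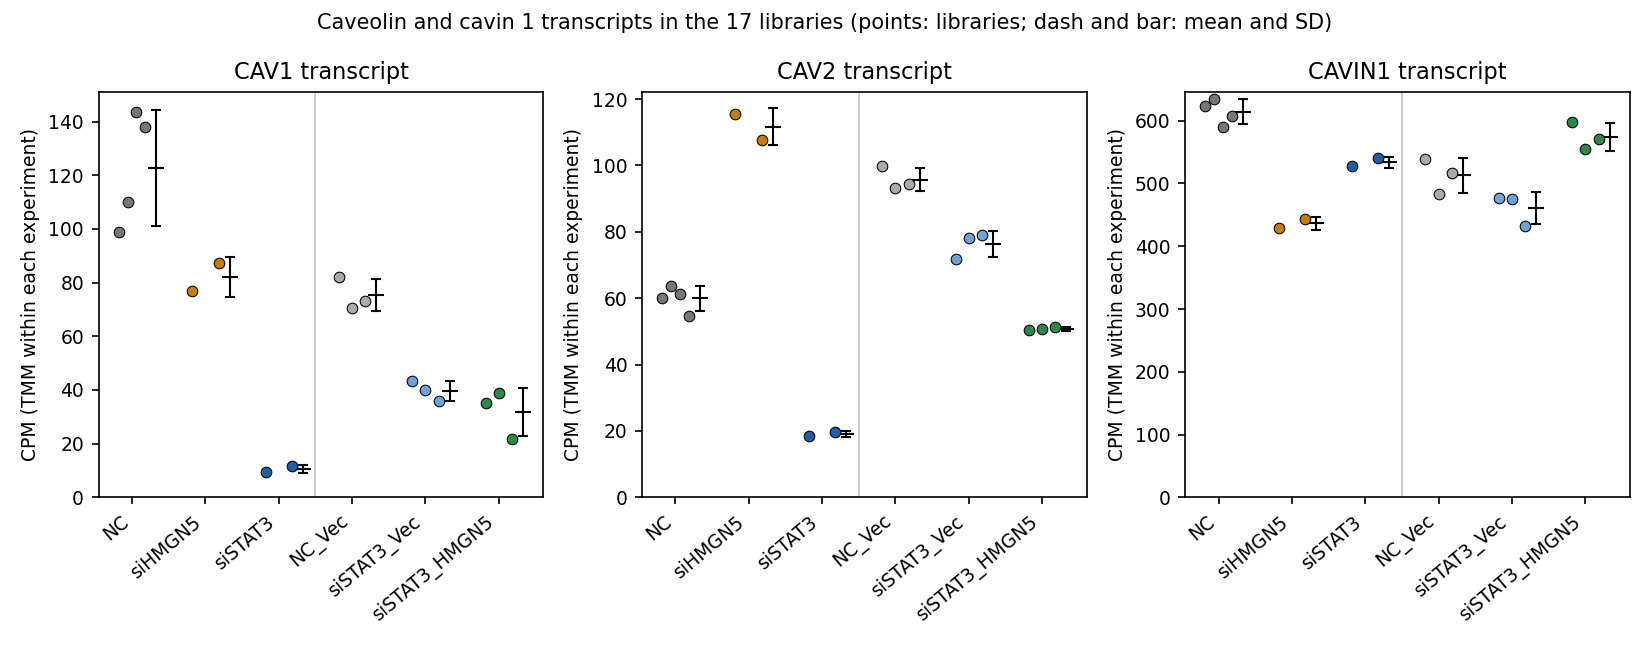
CPM of the CAV1, CAV2 and CAVIN1 transcripts (vertical axes, from 0, scaled within each experiment) in the 6 groups, with the siRNA experiment left of the grey line. Points are libraries in replicate order, the dash is the group mean and the bar its SD; the 2 siSTAT3 libraries sit at 9.41 and 11.5 CPM for CAV1, below all NC libraries.

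The first comparison, siSTAT3 with NC, asks what changes with STAT3 siRNA. CAV1 and CAV2 fell, CAV1 to 8.55% and CAV2 to 31.9% of the NC level, and CAVIN1 did not pass the test. Of the 3 members 2 passed, where 4.28% of all 74346 transcripts did, and 14.1% of the 15813 with a mean of at least 10 CPM (adjusted p under 0.05 by edgeR's quasi-likelihood test after Benjamini-Hochberg, as in all fits below). The median log2 fold change of the 3 members was -1.65, against 0 over all transcripts tested. Short transcripts (under 300 bases) also took a share of reads that moved with the group, 1.15% to 1.26% in NC and 1.57% and 1.59% in siSTAT3, and its part in the result was not tested.

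CAV1, the scaffold of the pit, was at 99.0, 110, 144 and 138 CPM in NC replicates 1 to 4 and at 9.41 and 11.5 CPM in siSTAT3. The groups did not overlap, and the lowest NC library held 1947 estimated reads where the siSTAT3 libraries held 177 and 216. The means were 123 ± 21.6 CPM (SD, n = 4) and 10.5 ± 1.51 CPM (SD, n = 2). The fall was 11.7-fold, or -3.55 ± 0.22 in log2 (SE, adjusted p = 0.00149). In all 15 alternatives this stayed past the threshold, between -3.75 and -3.32, with adjusted p of at most 0.0222; against NC replicates 1 and 2 it was -3.32 and against replicates 3 and 4 it was -3.75. Only 0.367% of the transcripts at 10 CPM or more had a lower fold change than CAV1.

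CAV2, the partner caveolin, was at 60.1, 63.7, 61.2 and 54.8 CPM in NC and at 18.4 and 19.7 CPM in siSTAT3. The NC pairs lay together for this transcript and both siSTAT3 libraries lay far below them. It fell 3.14-fold, from 59.9 ± 3.78 CPM (SD, n = 4) to 19.1 ± 0.907 CPM (SD, n = 2) (log2 fold change -1.65 ± 0.10, SE, adjusted p = 0.00128). The call held in all 15 alternatives, at -1.70 to -1.60. Against NC replicates 1 and 2 it was -1.70 and against replicates 3 and 4 it was -1.60.

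CAVIN1, the coat protein, was at 623, 635, 590 and 608 CPM in NC and at 527 and 540 CPM in siSTAT3. The siSTAT3 libraries were the lower ones with no overlap, but the difference was small beside those of the caveolins. The log2 fold change was -0.20 ± 0.06 (SE, adjusted p = 0.141). With each NC pair as its own group the adjusted p was 0.0214 against replicates 1 and 2 (log2 fold change -0.24) and 0.0499 against replicates 3 and 4 (-0.17). DESeq2 with all 4 NC libraries as 1 group also called it (-0.20, adjusted p = 3.52e-06). In the NC-pair fits the SE was 0.0366, against 0.0597 with all 4 NC libraries as 1 group, as the spread between the pairs was not counted. Over the 15 alternatives the log2 fold change ran from -0.24 to -0.17, and in 11 of them CAVIN1 again did not pass. Why DESeq2 called it was not tested.

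HMGN5 siRNA gave another pattern. In siHMGN5 against NC, CAV2 rose to 186% of the NC level and CAVIN1 fell to 71.1%, and CAV1 did not pass the test at 66.9%. Thus 2 of 3 members passed, in opposite directions, where 3.39% of all transcripts passed and 11.7% of those with at least 10 CPM. The members' median log2 fold change was -0.49, against -0.00173 over all transcripts and -0.13 at 10 CPM or more. Reads on transcripts under 300 bases were 1.56% and 1.7% in siHMGN5, above the NC range, and their part in these values was not tested.

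CAV2 stood at 116 and 108 CPM in the siHMGN5 libraries, above every NC library. The mean was 112 ± 5.48 CPM (SD, n = 2) and the rise 1.86-fold (log2 fold change 0.90 ± 0.09, SE, adjusted p = 0.00589). Against NC replicates 1 and 2 it was 0.85 and against replicates 3 and 4 it was 0.95, both past the threshold. Without siHMGN5 replicate 1 the call ended (log2 fold change 0.84, adjusted p = 0.059).

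CAVIN1 stood at 429 and 443 CPM in siHMGN5, below every NC library and below both siSTAT3 libraries. It fell 1.41-fold, from 614 ± 19.8 CPM (SD, n = 4) to 436 ± 9.78 CPM (SD, n = 2) (log2 fold change -0.49 ± 0.06, SE, adjusted p = 0.0115). Against each NC pair it was -0.53 and -0.46, both past the threshold. The SE was 0.0367 in those fits, against 0.0605 with all 4 NC libraries as 1 group. The call rested on having both siHMGN5 libraries: without replicate 1 or 2 the adjusted p was 0.116 or 0.0911, where the spread of the remaining library is taken from the other groups.

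CAV1 stood at 76.8 and 87.4 CPM in siHMGN5, below the lowest NC library at 99.0 CPM. The log2 fold change was -0.58 ± 0.18 (SE, adjusted p = 0.182). Its size depended on the controls: it was -0.35 against NC replicates 1 and 2 (adjusted p = 0.213) and -0.78 against replicates 3 and 4 (adjusted p = 0.0168), since the NC pairs themselves lay apart for CAV1, at 99.0 and 110 against 144 and 138 CPM.

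**Figure D2:**
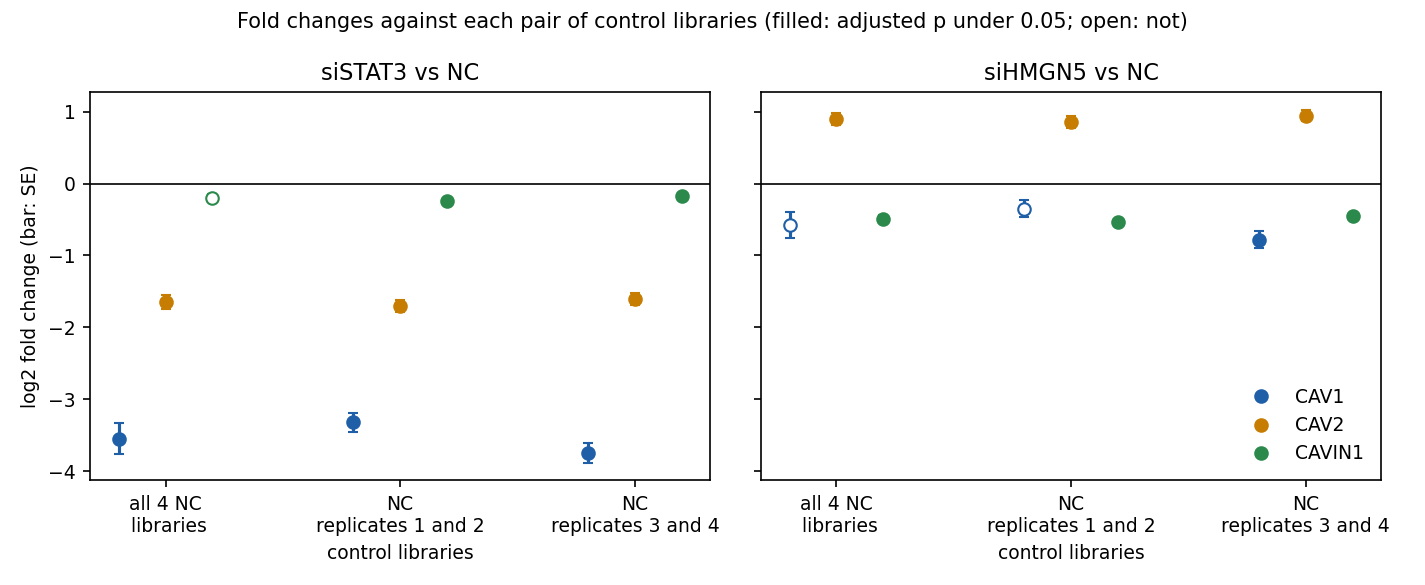
Log2 fold change of each transcript (vertical axis, bar: SE) for siSTAT3 and siHMGN5 against all 4 NC libraries, against NC replicates 1 and 2, and against NC replicates 3 and 4 (horizontal axis); filled points have an adjusted p under 0.05. CAV2 moves little with the controls used, at 0.85 to 0.95 for siHMGN5, and CAV1 moves from -0.35 to -0.78.

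The 2 knockdowns were also compared directly, which leaves the NC libraries out of the contrast but not out of the fit that sets the spread. The labels do not say whether the 2 knockdowns were handled together, or with which NC pair. CAV1 was 7.83-fold lower in siSTAT3 than in siHMGN5 (log2 fold change -2.97 ± 0.23, SE, adjusted p = 0.00279) and CAV2 was 5.85-fold lower (-2.55 ± 0.11, adjusted p = 0.00096). Both calls held in all 11 alternatives. CAVIN1 differed by 0.29 ± 0.07 in log2, short of the threshold (SE, adjusted p = 0.0794). Here too 2 of 3 members passed, beside 3.89% of all transcripts and 12.8% of those with at least 10 CPM. Within the siRNA experiment the order of CAV2 levels was therefore siHMGN5, NC, siSTAT3, and that of CAV1 was NC, siHMGN5, siSTAT3, of which the first pair did not differ by the test. For CAVIN1 it was NC, siSTAT3, siHMGN5, and neither neighbouring pair differed by the test.

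**Figure D3:**
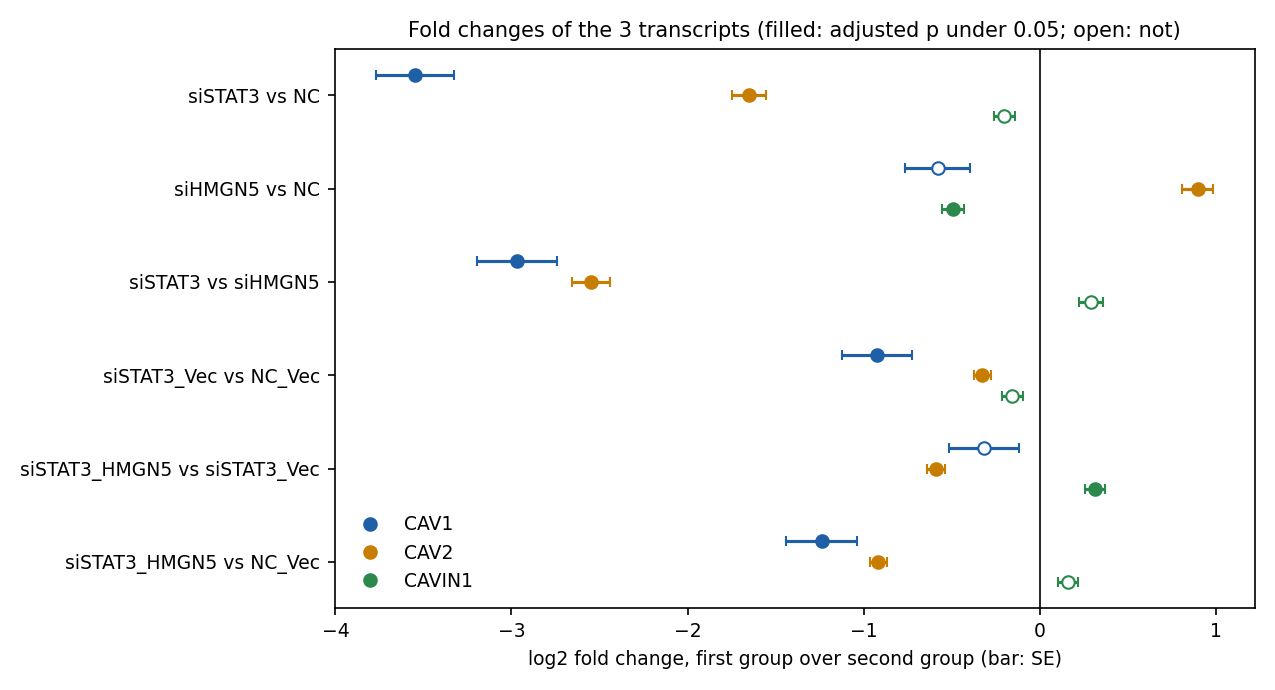
Log2 fold change of the CAV1, CAV2 and CAVIN1 transcripts (horizontal axis, bar: SE) in 6 comparisons, first group over second group; filled points have an adjusted p under 0.05. CAV1 and CAV2 lie left of 0 wherever STAT3 siRNA is set against a control, at -3.55 and -1.65 without vector and at -0.92 and -0.33 with it.

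In the lentiviral experiment STAT3 siRNA was set against control siRNA in cells with the control vector. CAV1 and CAV2 fell again, by less: CAV1 to 52.8% and CAV2 to 79.8% of NC_Vec. CAVIN1 did not pass the test. The count was 2 of 3 members, where 14.3% of all 69768 transcripts passed and 38.5% of the 15664 with at least 10 CPM, so a call was common among abundant transcripts here. The members' median log2 fold change was -0.33, against 0.0168 over all transcripts. Reads on transcripts under 300 bases stayed between 1.16% and 1.3% in all 9 lentiviral libraries.

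CAV1 was at 82.2, 70.7 and 73.2 CPM in NC_Vec and at 43.4, 39.95 and 36.0 CPM in siSTAT3_Vec. The groups lay well apart. The fall was 1.9-fold, from 75.4 ± 6.07 CPM to 39.8 ± 3.70 CPM (SD, n = 3 each) (log2 fold change -0.92 ± 0.20, SE, adjusted p = 0.0193). The call ended when NC_Vec replicate 1, siSTAT3_Vec replicate 2 or siSTAT3_Vec replicate 3 was left out (adjusted p = 0.0642, 0.0708 and 0.0755), at log2 fold changes of -0.85, -0.92 and -0.86.

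CAV2 was at 99.7, 93.2 and 94.3 CPM in NC_Vec and at 71.9, 78.2 and 79.1 CPM in siSTAT3_Vec. The difference was small but exceeded the spread of either group. It fell 1.25-fold, from 95.7 ± 3.51 to 76.4 ± 3.9 CPM (SD, n = 3 each) (log2 fold change -0.33 ± 0.05, SE, adjusted p = 0.00441), and the call held in all 13 alternatives. Of the transcripts at 10 CPM or more, 26.3% had a lower fold change than CAV2.

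CAVIN1 was at 539, 484 and 517 CPM in NC_Vec and at 476, 475 and 432 CPM in siSTAT3_Vec. The groups nearly touched. The log2 fold change was -0.15 ± 0.06 (SE, adjusted p = 0.13), close in size to that of siSTAT3 against NC.

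The effect of lentiviral HMGN5 under STAT3 siRNA was read from siSTAT3_HMGN5 and siSTAT3_Vec. CAV2 fell further, to 66.4% of siSTAT3_Vec, CAVIN1 rose to 125%, and CAV1 did not pass the test. Again 2 of 3 members passed, in opposite directions, beside 3.77% of all transcripts and 12.5% of those with at least 10 CPM. The members' median log2 fold change was -0.32, against -0.00594 over all transcripts.

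CAV2 was at 50.3, 50.6 and 51.3 CPM in siSTAT3_HMGN5, all below the lowest siSTAT3_Vec library at 71.9 CPM. The mean was 50.8 ± 0.534 CPM (SD, n = 3), the tightest of the groups for this transcript. The fall was 1.51-fold (log2 fold change -0.59 ± 0.05, SE, adjusted p = 0.00172), and it held in all 13 alternatives, at -0.64 to -0.56.

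CAVIN1 was at 598, 555 and 570 CPM with HMGN5, above all siSTAT3_Vec and all NC_Vec libraries. It rose 1.25-fold over siSTAT3_Vec, from 461 ± 25.4 to 574 ± 21.9 CPM (SD, n = 3 each) (log2 fold change 0.32 ± 0.06, SE, adjusted p = 0.0263). This call was close to the threshold: it ended when siSTAT3_Vec replicate 1, 2 or 3 (adjusted p = 0.066, 0.0772 and 0.0823) or siSTAT3_HMGN5 replicate 1, 2 or 3 (0.0875, 0.0619 and 0.083) was left out, and without a low-count filter (0.0504).

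CAV1 was at 35.0, 39.0 and 21.9 CPM with HMGN5. Its first 2 libraries lay inside or just below the siSTAT3_Vec range and replicate 3 lay lower. The log2 fold change was -0.32 ± 0.20 (SE, adjusted p = 0.543). Without siSTAT3_HMGN5 replicate 3 it was -0.11.

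Set against NC_Vec, cells with STAT3 siRNA and HMGN5 held 42.4% of the CAV1 and 53% of the CAV2 level. CAV1 fell 2.36-fold (log2 fold change -1.24 ± 0.20, SE, adjusted p = 0.00357) and CAV2 1.89-fold (-0.92 ± 0.05, adjusted p = 2.1e-05), and both calls held in all 13 alternatives. CAVIN1 differed by 0.16 ± 0.06 in log2, short of the threshold (SE, adjusted p = 0.0859). So 2 of 3 members passed where 22.3% of all transcripts passed and 51.3% of those with at least 10 CPM. This contrast shares siSTAT3_HMGN5 libraries with the previous one and NC_Vec libraries with the one before it. For neither caveolin was the mean of the HMGN5 group nearer to NC_Vec than that of siSTAT3_Vec.

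For CAV2 the values of the experiments stand side by side: with HMGN5 siRNA it was 1.86-fold higher than NC, and with lentiviral HMGN5 it was 1.51-fold lower than siSTAT3_Vec. CAVIN1 had the reverse pair, 1.41-fold lower with the siRNA and 1.25-fold higher with the lentivirus. The lentiviral call for CAVIN1 ended whenever any library of the 2 compared groups was left out. CAV1 had no such pair: its log2 fold changes were -0.58 with the siRNA and -0.32 with the lentivirus. Neither CAV1 value passed the test. The comparisons use different libraries, one in cells with STAT3 siRNA and the other without, and the difference between them was not tested.

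Whether the STAT3 siRNA effect itself differed between the experiments was tested in 1 fit of all 17 libraries. The effect was more negative without vector for CAV1, by -2.65 ± 0.30 (difference of log2 fold changes ± SE, adjusted p = 0.000168), and for CAV2, by -1.35 ± 0.10 (adjusted p = 5.57e-06). For CAVIN1 the difference was -0.07 ± 0.08 (adjusted p = 0.778). The 2 calls among 3 members compare with 5.51% of all 86839 transcripts and 20.2% of the 15855 with at least 10 CPM. Both held in all 20 alternatives, CAV1 between -2.85 and -2.41 and CAV2 between -1.40 and -1.31. With NC replicates 1 and 2 as the controls the difference was -2.41 for CAV1, -1.385 for CAV2 and -0.10 for CAVIN1. With NC replicates 3 and 4 it was -2.85, -1.305 and -0.04 in the same order. All lentiviral libraries and no others carry a vector, so experiment and vector cannot be told apart.

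Ratios between the members within a library do not depend on the scaling between libraries. CAV1 over CAV2, in TPM, was 1.997, 2.09, 2.83 and 3.03 in NC replicates 1 to 4, and below 1 in each of the other 13 libraries. It was 0.804 and 0.979 in siHMGN5 and 0.615 and 0.698 in siSTAT3. In the lentiviral experiment it was 0.945, 0.873 and 0.956 in NC_Vec, 0.726, 0.619 and 0.533 in siSTAT3_Vec, and 0.810, 0.898 and 0.499 in siSTAT3_HMGN5. CAV1 thus exceeded CAV2 in the cells with control siRNA and no vector alone. The control groups themselves differed in this ratio, with means of 2.485 ± 0.519 (SD, n = 4) in NC and 0.925 ± 0.0453 (SD, n = 3) in NC_Vec.

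CAVIN1 over the sum of both caveolins, in TPM, was 2.03 to 2.81 in NC, 1.65 and 1.66 in siHMGN5 and 14.1 and 12.6 in siSTAT3. It was 2.17 to 2.33 in NC_Vec, 2.79 to 3.05 in siSTAT3_Vec and 4.48 to 5.81 in siSTAT3_HMGN5. The 3 lentiviral groups did not overlap in this ratio, and siSTAT3 stood above all other groups. No test was run on the ratios, which are given as a description.

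**Figure D4:**
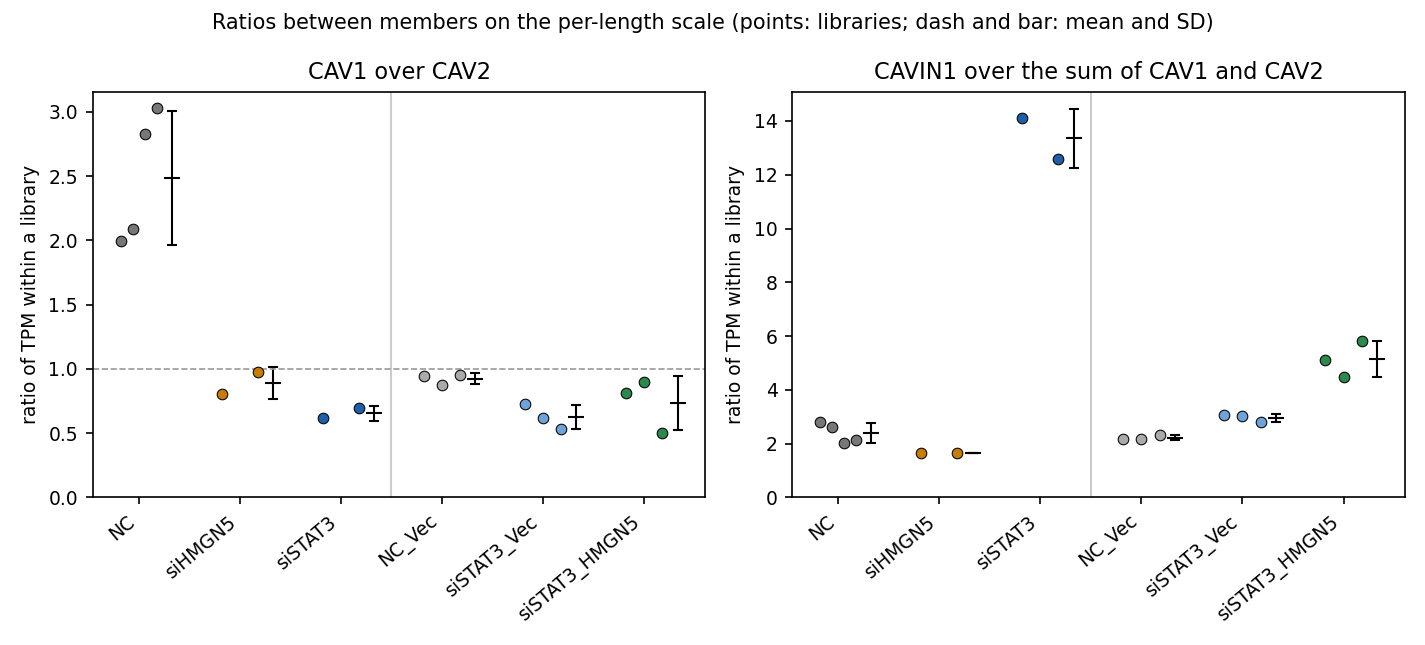
Ratio of CAV1 to CAV2 (left) and of CAVIN1 to the sum of CAV1 and CAV2 (right), in TPM within each library (vertical axes, from 0; dashed line at 1), in the 6 groups. Points are libraries, the dash and bar the mean and SD; NC stands apart on the left at 1.997 to 3.03, and siSTAT3 on the right at 12.6 and 14.1.

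Across the 17 libraries, with each experiment centred on its own mean, CAV1 and CAV2 had a Pearson r of 0.83 in log2(CPM + 0.5), CAV1 and CAVIN1 of 0.123, and CAV2 and CAVIN1 of -0.375. These are descriptions, since the libraries share 6 treatments and the siSTAT3 libraries are low for both caveolins. Of the transcripts at 10 CPM or more, 97% had a lower r with CAV1 than CAV2 had. With CAV2, 98.2% had a lower r than CAV1 had, so other transcripts follow each caveolin at least as closely. Of 15778 transcripts at 10 CPM or more on average, ENST00000304414 was most like CAV1 (r = 0.977), ENST00000381344 most like CAV2 (r = 0.991) and ENST00000379858 most like CAVIN1 (r = 0.943); the files do not pair these IDs with gene names.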

How the data were processed

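The 17 RNA-seq libraries were used; 2 H3K27ac CUT&Tag samples were not analysed here. Per the file headers, the deposited tables list TPM, lengths and estimated counts of reads, as produced by Salmon before deposit, for 175775 Ensembl transcripts. The authors' estimated count is not whole because reads matching several transcripts are divided among them. Salmon 1.4.0 and the build GRCh38 come from the submitters' processing notes; the transcript release and options are not given in the sources used here. TPM in the deposited files is scaled per effective length to a fixed total. Transcripts under 300 bases took 38.8% to 41% of it in NC, 44.2% and 45.4% in siHMGN5, 43.6% and 43.8% in siSTAT3 and 39.1% to 40.9% in the lentiviral experiment, so TPM served for levels and ratios between members within a library.

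Estimated counts were rounded and fitted per transcript over the whole table, apart for each experiment in R 4.3.3 by the quasi-likelihood test of edgeR 4.0.16 (TMM, filterByExpr, estimateDisp). P-values were adjusted by Benjamini-Hochberg across the tested transcripts, with calls under 0.05. An SE is |log2 fold change| over the root of F. The difference between experiments was a contrast in a fit of all 17 libraries. Alternatives were DESeq2 size factors, DESeq2 1.42.0, limma-voom 3.58.1, no low-count filter, an effective length offset, the compared groups alone, a replicate block, each NC pair as the controls, and each library left out. With an NC pair as the controls, the other pair stayed in the fit as a group of its own. The fits were tested on simulated data with large planted changes and the same spread for every transcript. That test covers neither smaller changes nor the split between the NC pairs. Genes and promoter windows are from RefSeq (GRCh38.p14), matched by symbol for 3 and 2 of the 3 members; gene names of the 3 transcripts came with the choice of members. The members and lists were chosen with earlier results of these data known. The named transcripts were the 3 members and, for each, the transcript with the highest r.

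A count of 3 reads equals 0.154 to 0.157 CPM in the siRNA experiment and 0.13 to 0.133 CPM in the lentiviral one, far below all member values. Each library counted as 1 sample. No pair of replicates agreed within counting noise (mean chi-square of at least 14.7 per transcript of at least 20 reads), which does not show whether replicates were separate cultures.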

Additional observations from a re-analysis of the deposited data

Results flagged for a closer look

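The STAT3 siRNA effect differed between the experiments for CAV1 and CAV2 by the test of the difference itself. The difference of log2 fold changes, siRNA experiment minus lentiviral experiment, was -2.65 ± 0.30 for CAV1 (SE, edgeR, adjusted p = 0.000168) and -1.35 ± 0.10 for CAV2 (adjusted p = 5.57e-06). Both siSTAT3 libraries were lower than each NC library, and all 3 siSTAT3_Vec libraries lower than each NC_Vec library, for both transcripts. The same held for CAVIN1, whose effect did not differ between the experiments by the test, so this order does not set CAV1 and CAV2 apart. The share of all transcripts with such an order was not counted, so the order is a description only. The knockdown of STAT3 in each experiment was not measured here, and its part in the difference was not tested.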

How the results depend on the processing

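All 300 alternative values of the members' fold changes kept their direction, and 275 kept their side of the threshold. With DESeq2, calls were gained for CAVIN1 in siSTAT3 vs NC (-0.20), siSTAT3 vs siHMGN5 (0.29), siSTAT3_Vec vs NC_Vec (-0.17) and siSTAT3_HMGN5 vs NC_Vec (0.15), and for CAV1 in siHMGN5 vs NC (-0.58). Against NC replicates 1 and 2, CAVIN1 in siSTAT3 vs NC passed at -0.24, and against replicates 3 and 4 at -0.17, where CAV1 in siHMGN5 vs NC passed at -0.78. In these NC-pair fits the spread between the pairs did not count as error. Same-numbered libraries did not deviate together (r of -0.0819 to 0.0441). This does not settle whether the numbers pair them, and the labels do not say. In the siRNA experiment, groups of 2 libraries give only mirror-image deviations, and the split between the NC pairs weighs on the NC deviations. With a replicate block, in which NC replicates 3 and 4 drop out, CAVIN1 passed in siSTAT3 vs NC (-0.24) and siSTAT3 vs siHMGN5 (0.29), and calls ended for CAV2 in siHMGN5 vs NC (0.85) and CAVIN1 in siSTAT3_HMGN5 vs siSTAT3_Vec (0.32). The last also ended without a low-count filter (0.31), where more transcripts are tested. Leaving out each library gave 0.84 to 0.94 for CAV2 and -0.53 to -0.48 for CAVIN1 in siHMGN5 vs NC, -0.99 to -0.85 for CAV1 in siSTAT3_Vec vs NC_Vec, and 0.27 to 0.34 for CAVIN1 in siSTAT3_HMGN5 vs siSTAT3_Vec. The cause of the other changes was not tested.

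The number of transcripts called in all moved more: from 3181 to 775 (without siSTAT3 replicate 2) and 10650 (DESeq2) in siSTAT3 vs NC, from 2521 to 551 (without siHMGN5 replicate 2) and 9904 (DESeq2) in siHMGN5 vs NC, from 2893 to 844 (without siSTAT3 replicate 1) and 10178 (DESeq2) in siSTAT3 vs siHMGN5, from 9953 to 16965 (DESeq2) in siSTAT3_Vec vs NC_Vec, from 2631 to 1156 (replicate block) and 8078 (DESeq2) in siSTAT3_HMGN5 vs siSTAT3_Vec, and from 4784 to 3061 (without siSTAT3 replicate 1) and 11074 (DESeq2) for the difference between experiments.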
